A study of Danio rerio with 12 samples.

Results

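Claudins are the membrane proteins from which the strands of tight junctions are built. Each spans the membrane several times and pairs with claudins of the neighbouring cell, so that the set a cell carries sets how tight its junction is and which ions pass between cells. They are characteristic of epithelia and endothelia, and bony fishes carry many more of them than mammals, several of them in the gill and gut, where the epithelium borders water or food. The claudins of 4 sorted cell populations of the adult zebrafish were described here. A gene was counted as a claudin when its zebrafish symbol began with cldn in either case, which gave 42 of the 32520 Ensembl genes of the count table. Of these, 2 (CLDND1 and cldnd1a) are claudin domain genes, which are related to claudins by sequence. The symbols CLDN5, CLDN10 and CLDN11 each stood for a pair of genes, 6 identifiers in all, which are given with their identifiers where named.

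All cells came from adult fish that carried both sox17:CreERT2 and mpeg1:loxP-DsRedx-loxP-GFP. These transgenes encode a tamoxifen-dependent Cre recombinase under sox17, a gene of the endoderm, and a cassette under mpeg1, a gene of macrophages, in which Cre replaces the red protein DsRedx by GFP. GFP cells, called metaphocytes in the series, and DsRedx cells, called macrophages there, were sorted from gill and from intestine, which gave 4 groups (gill GFP, gill DsRedx, intestine GFP and intestine DsRedx) with 3 libraries each. Each library was made by SMART-seq2, a full-length cDNA protocol for very small samples, from 30 to 50 sorted cells. All 4 groups carry both transgenes, so GFP depends on the activity of both promoters and on recombination, and the labels do not say when Cre was activated. Nor do they say whether the libraries of a group came from different fish, so the p-values measure the spread between these samples, which may be technical. With bulk RNA of this kind, fewer cells of a type and less RNA per cell cannot be told apart.

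The libraries held 5895669 to 12365233 counts and 9506 to 13278 genes with a count. In the leukocyte list, 10 genes were tested, of which 8 were lower in gill GFP than in gill DsRedx cells (2.31% of all tested genes were) and 7 were lower in intestine GFP than in intestine DsRedx cells (2.03%). The 9 names of this list matched 11 genes, because mpeg1.1 stood for several MPEG1 identifiers. That name therefore counts more than once among the genes called in gill. The reporter cassette used for sorting is also under mpeg1. The summed leukocyte level was 15881 to 23785 TPM in gill GFP cells, 33613 to 43025 in gill DsRedx, 4379 to 5827 in intestine GFP and 20504 to 27753 in intestine DsRedx. Members of this list differed in size of change. In GFP cells ptprc was 248-fold lower in gill and 177-fold lower in intestine, and cd74a 2.66-fold and 7.61-fold lower. LCP1 and CORO1A were not called in either tissue, so the sum does not describe each member. TPM, a transcript share scaled to a fixed total, is a level per transcript length, so it is the scale on which genes are compared with each other below. The epithelial list (7 genes, with the adhesion genes cdh1 and epcam) summed to 1569 to 3597.5 TPM in gill GFP cells, 244.5 to 1031.8 in gill DsRedx, 7378 to 8804 in intestine GFP and 286 to 643 in intestine DsRedx. The enterocyte list (6 genes) summed to 3807 to 4278 TPM in intestine GFP cells and 32.7 to 89.2 in intestine DsRedx, and all 6 were at 0 counts in gill GFP cells. The neutrophil gene lyz was at 0 counts in every library. The endothelial list (6 genes) summed to at most 0.0463 TPM in gill GFP, 0.222 in gill DsRedx, 10.3 in intestine GFP (replicate 2, nearly all plvapb) and 25.8 in intestine DsRedx (replicate 2, nearly all TIE1), with cdh5 at 0 throughout. The part that epithelial cells sorted with the GFP gates had in the claudin levels was not tested.

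Claudins made up a far larger part of the RNA of GFP cells than of DsRedx cells. Their summed level was 7745, 10501 and 8242 TPM in the 3 gill GFP libraries and 81.4, 542 and 97.9 in gill DsRedx. In the intestine it was 6499, 7948 and 8996 TPM in GFP libraries and 188, 131 and 159 in DsRedx libraries. GFP and DsRedx libraries therefore did not overlap in either tissue, and the 542 TPM of gill DsRedx replicate 2 was the highest DsRedx value. As a share of all counts, claudins took 0.625% to 1.06% in gill GFP, 0.00724% to 0.0485% in gill DsRedx, 0.582% to 0.819% in intestine GFP and 0.0140% to 0.0246% in intestine DsRedx. The family was uneven: 12 of 42 members had no count in any library, 18 stayed under 1 TPM in every library, and 15 reached a mean of 10 TPM or more in at least 1 group. A total of 12 members had enough counts to be tested between groups, and they passed that filter through the groups where they were high, so counts among them are not counts over the family.

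**Figure D1:**
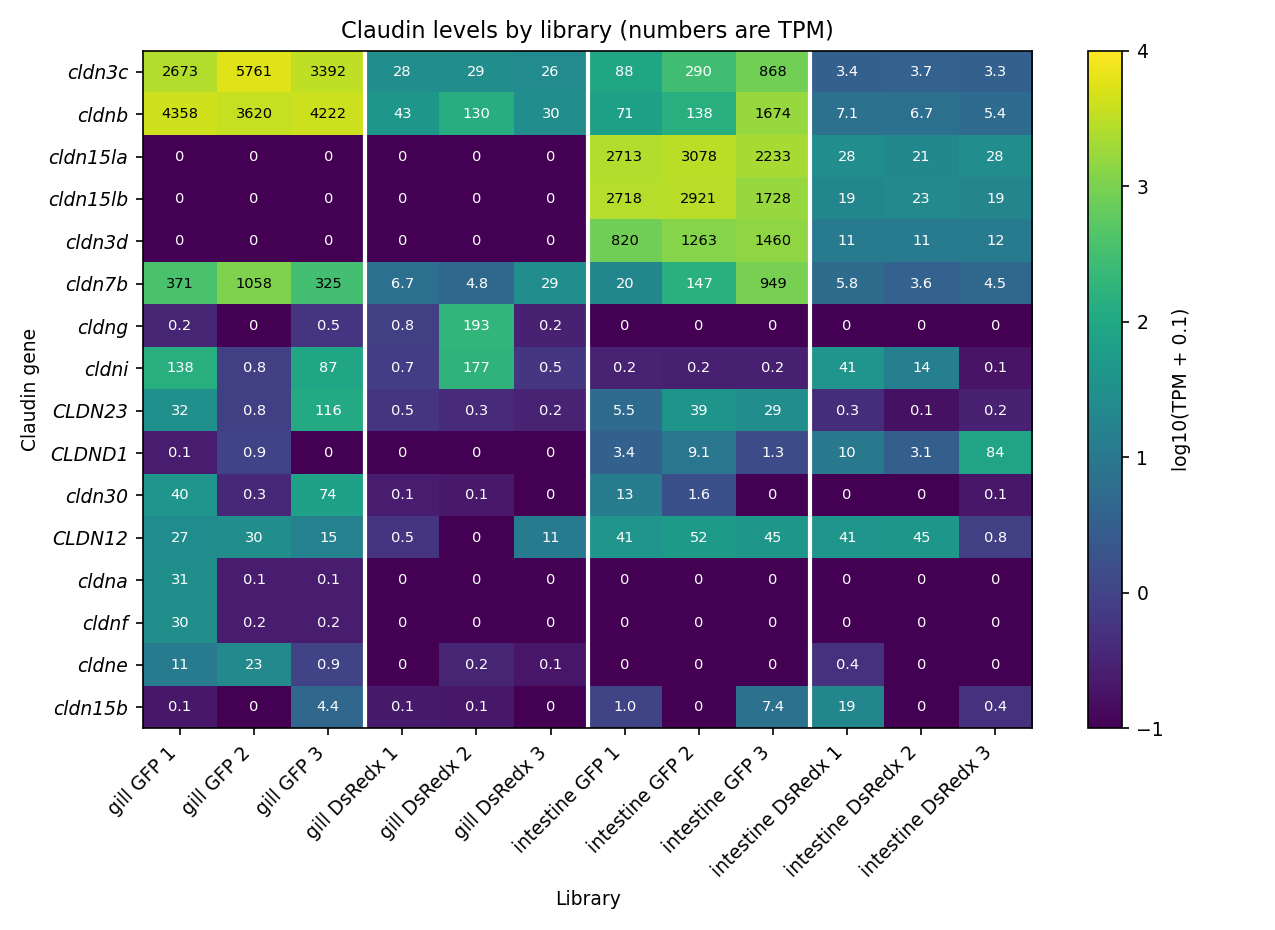
Level of 16 claudins (rows: the 12 tested, and those with a group mean of at least 10 TPM) in the 12 libraries (columns), coloured by log10(TPM + 0.1), with the TPM printed in each cell and white lines between groups. The rows of cldn3c, cldnb and cldn7b are at the bright end of the scale in the gill GFP libraries and above the DsRedx values in both tissues, those of cldn15la, cldn15lb and cldn3d are at 0 in all 6 gill libraries, and several other rows are high in 1 or 2 libraries alone.

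A total of 3 claudins, cldn3c, cldnb and cldn7b, were high in GFP cells of both tissues. They belong to the claudins of epithelial sheets: cldnb is used in zebrafish as a marker of epithelia and of the migrating lateral line primordium, and the mammalian relative of cldn7b binds the epithelial adhesion protein EpCAM. In gill GFP cells these 3 made up 95.6%, 99.4% and 96.3% of the claudin TPM of the 3 libraries. The level of cldn3c was 2673, 5761 and 3392 TPM in gill GFP libraries and 28.0, 29.4 and 25.9 in gill DsRedx. In the intestine cldn3c was at 87.6, 289.9 and 868 TPM in GFP libraries and at 3.36, 3.67 and 3.35 in DsRedx. The groups of each tissue did not overlap, and the intestine GFP libraries spread over a wider range than the gill GFP libraries.

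The level of cldnb was 4358, 3619.6 and 4222 TPM in gill GFP libraries, against 43.5, 130.2 and 29.7 in gill DsRedx. In intestine GFP cells cldnb was at 70.6, 138 and 1674 TPM, against 7.11, 6.69 and 5.39 in intestine DsRedx. Intestine GFP replicate 3 therefore held most of the cldnb of its group, while the 3 gill GFP libraries were close to each other (4067 ± 393 TPM, SD, n = 3). The level of cldn7b was 371, 1058 and 325 TPM in gill GFP libraries and 6.72, 4.75 and 28.7 in gill DsRedx. In the intestine cldn7b was at 20.1, 147 and 949 TPM in GFP libraries and 5.82, 3.58 and 4.52 in DsRedx. Again the reporter groups did not overlap, and intestine GFP replicate 3 was the highest of its group for all 3 genes.

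A separate set of 3 claudins, cldn15la, cldn15lb and cldn3d, was read in the intestine alone. The gene cldn15la is expressed in the zebrafish gut epithelium, where its regulatory region is used to drive reporters, and the mammalian claudin of the same group forms pores for cations between enterocytes. The level of cldn15la was 2713, 3078 and 2233 TPM in intestine GFP libraries and 27.9, 21.2 and 27.9 in intestine DsRedx. That of cldn15lb was 2718, 2921 and 1728 TPM in intestine GFP and 19.3, 22.6 and 18.8 in intestine DsRedx. That of cldn3d was 819.6, 1263 and 1460.5 TPM in intestine GFP and 11.5, 10.7 and 11.6 in intestine DsRedx. None of the 3 had a single count in any of the 6 gill libraries, where 3 counts over a group would amount to 0.131 CPM in gill GFP and 0.165 CPM in gill DsRedx (CPM, counts scaled to the adjusted library size). That limit covers counting error only.

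**Figure D2:**
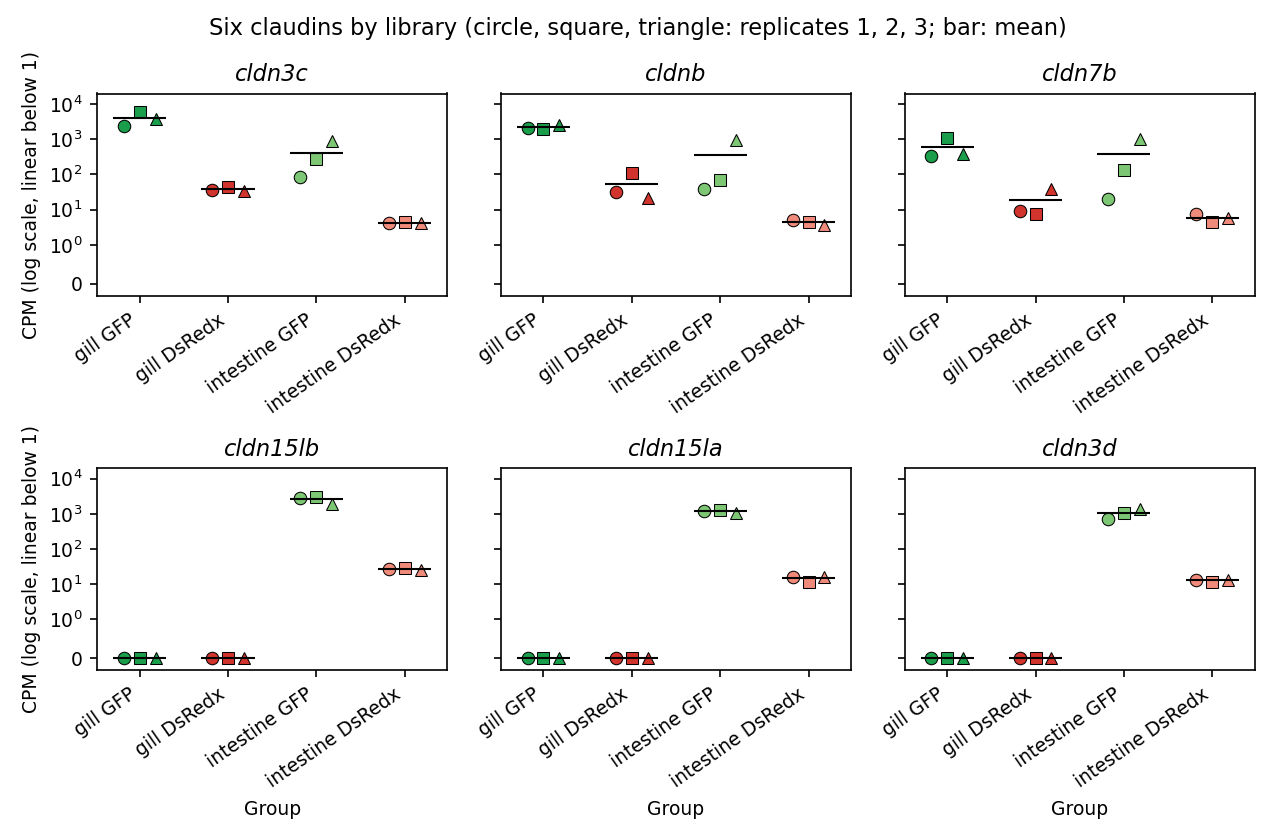
CPM of the 6 claudins called between GFP and DsRedx cells, in each library (circle, square and triangle for replicates 1, 2 and 3; bar, group mean; the axis is linear below 1 and logarithmic above). In cldn3c, cldnb and cldn7b both GFP groups lie above the DsRedx group of their tissue, and in cldn15la, cldn15lb and cldn3d both gill groups lie at 0.

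The 6 claudins together made up nearly all claudin RNA of intestine GFP cells, 98.9%, 98.6% and 99.1%, but their balance differed between those libraries. The intestinal set took 96.2% and 91.4% of claudin TPM in replicates 1 and 2 and 60.3% in replicate 3, and the shared set took 2.74%, 7.23% and 38.8%. In TPM the intestinal set was 6250, 7262 and 5422, and the shared set 178.3, 574.2 and 3491, so that the libraries differed mainly in the shared set. Summed goblet cell markers (2 genes found, AGR2 and SPDEF) were also highest in intestine GFP replicate 3, at 37.1 TPM against 0.185 and 0.215 in the other intestine GFP libraries; their part in the shared set's level was not tested. The summed enterocyte level was 3807, 4258 and 4278 TPM in the same 3 libraries, and the epithelial list summed to 7378, 7958 and 8804 TPM. The part of either list in the shared set's level was not tested.

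**Figure D3:**
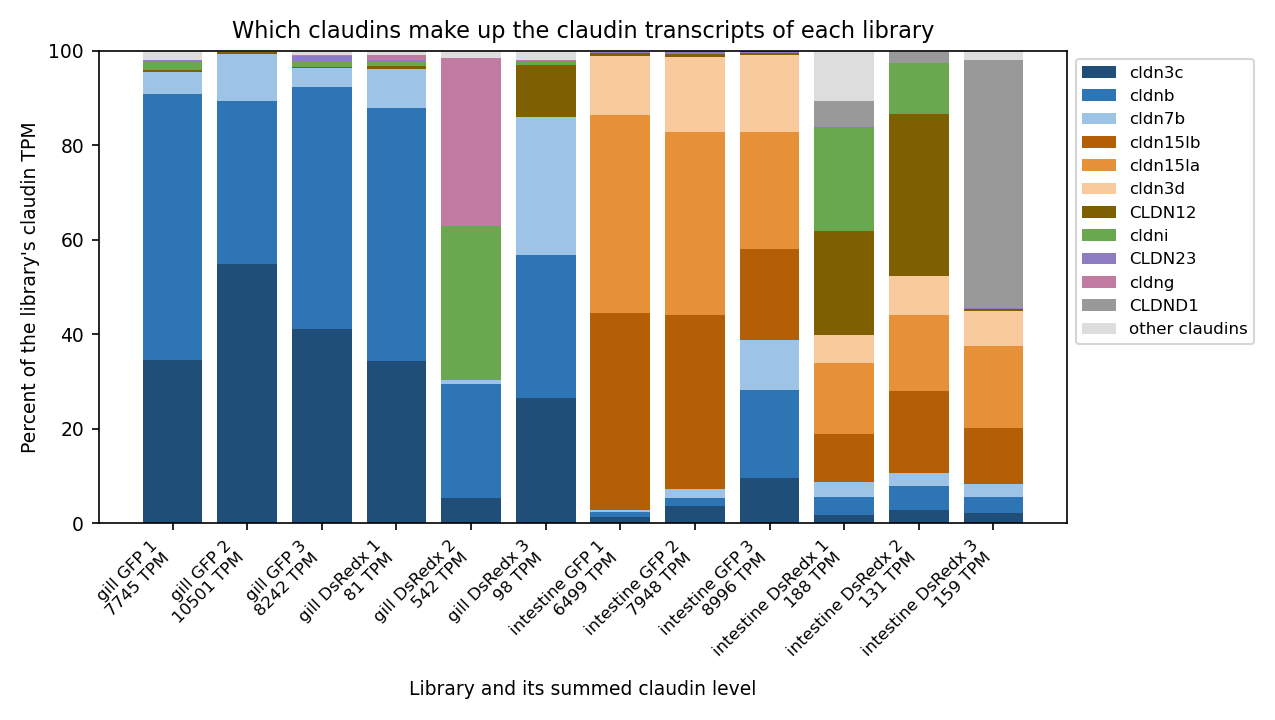
Share (percent) of each library's claudin TPM taken by single claudins, stacked, for the 12 libraries. Gill GFP libraries consist of cldn3c, cldnb and cldn7b (95.6% to 99.4%), intestine GFP libraries mostly of cldn15la, cldn15lb and cldn3d (60.3% to 96.2%), and the DsRedx shares are shares of a small total (81.4 to 542 TPM).

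The first comparison asked which claudins differ between GFP and DsRedx cells of the same tissue. In gill, 3 of 12 tested claudins were higher in GFP cells and 0 were lower at an adjusted p under 0.05, where 2.29% of all 10666 tested genes were called higher, 2.31% lower and 4.59% in either direction. Among these 12, cldn3d, cldn15la and cldn15lb had 0 counts in both gill groups and could not be called there. The level of cldn3c was 3994 ± 1784 CPM (SD, n = 3) in gill GFP and 38.2 ± 5.32 CPM in gill DsRedx cells, a log2 fold change of 6.71 (SE 0.805, 104.5-fold), with an adjusted p of 3.77e-05 by edgeR's quasi-likelihood test. That of cldnb was 2229 ± 322 CPM against 53.2 ± 46.9 CPM, a log2 fold change of 5.39 (SE 1.04, 41.9-fold) and an adjusted p of 0.00408 in the same edgeR fit. That of cldn7b was 602 ± 435 CPM against 18.3 ± 17.5 CPM, a log2 fold change of 5.04 (SE 1.19, 32.9-fold) and an edgeR adjusted p of 0.0186. The cldn7b call did not hold without gill GFP replicate 2 (adjusted p = 0.0869), gill DsRedx replicate 1 (0.0568) or gill DsRedx replicate 2 (0.0512), while the cldn3c and cldnb calls held in all 12 edgeR fits that each left out 1 library. Fits without an intestine library bear on the gill comparison only through the shared filter, scaling and estimate of spread.

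In intestine, 6 of 12 tested claudins were higher in GFP cells and 0 were lower, where 2.09% of tested genes were called higher, 2.03% lower and 4.12% in either direction. The shared set was called here too: log2 fold changes were 6.60 for cldn3c (SE 0.804, 97.0-fold, edgeR adjusted p = 4.22e-05), 6.34 for cldnb (SE 1.09, 81.0-fold, 0.00125) and 6.03 for cldn7b (SE 1.25, 65.5-fold, 0.00675). These 3 folds rested largely on intestine GFP replicate 3. Without it the log2 fold change was 5.14 for cldn3c and 3.41 for cldnb, both still called, and 3.52 for cldn7b, which was not (adjusted p = 0.147).

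The intestinal set varied less between the intestine GFP libraries. The level of cldn15lb was 2588 ± 546 CPM in intestine GFP and 27.3 ± 1.95 CPM in intestine DsRedx (log2 fold change 6.57, SE 0.716, 94.7-fold, edgeR adjusted p = 4.23e-05). That of cldn15la was 1198 ± 119 CPM against 14.8 ± 2.66 CPM (6.34, SE 0.857, 81.1-fold, adjusted p = 0.000325), and that of cldn3d was 1061 ± 332 CPM against 12.8 ± 0.967 CPM (6.37, SE 0.893, 82.8-fold, adjusted p = 0.000432). All 3 were called in each of the 12 fits that left out 1 library, of which those without a gill library bear on this comparison only indirectly. With genes detected per library added as a covariate, the intestine calls fell from 6 to 2 (cldn3c and cldnb), with adjusted p of 0.223 for cldn15lb, 0.291 for cldn15la and 0.309 for cldn3d; intestine GFP libraries had 12802 to 13278 genes with a count and intestine DsRedx libraries 11312 to 11767, so number of genes and reporter move together.

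**Figure D4:**
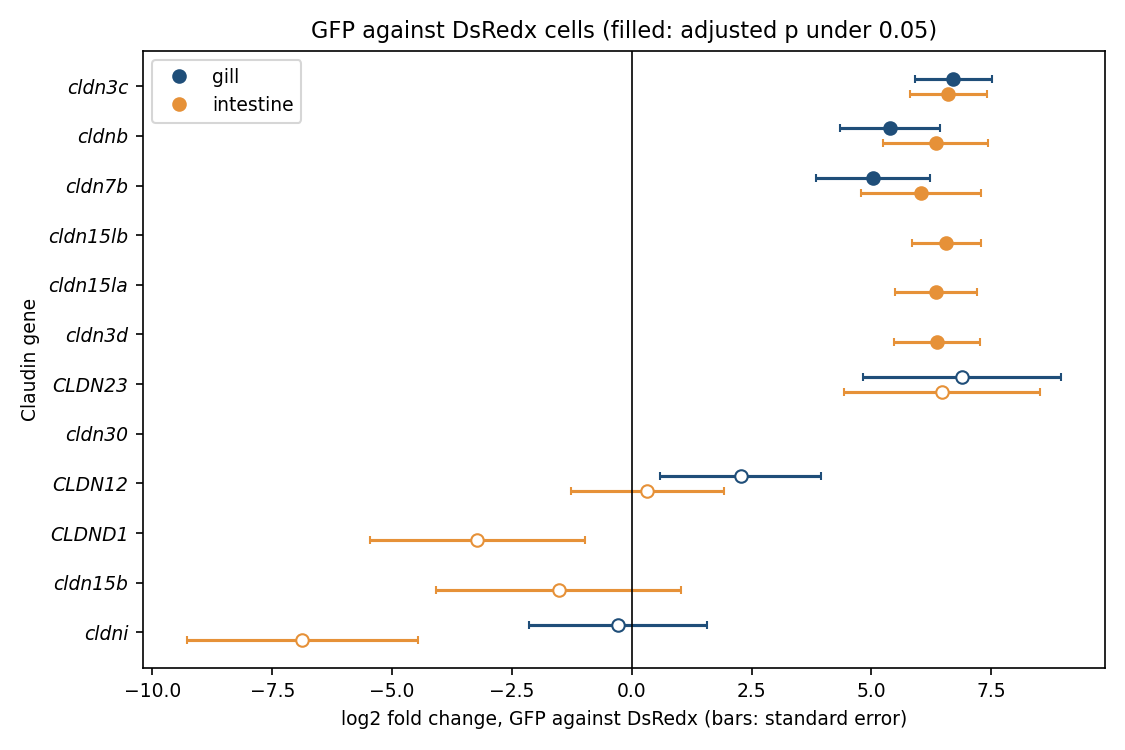
Log2 fold change of GFP against DsRedx cells in gill and in intestine for the tested claudins, with SE bars; filled points have an edgeR adjusted p under 0.05, and genes with 0 to 3 counts in a group are not drawn. The 3 shared claudins lie between 5.04 and 6.71 in both tissues, and the 3 intestinal ones between 6.34 and 6.57 in intestine alone.

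The DsRedx levels of these 6 genes were nearly a fixed part of the GFP level of the same tissue. As a percentage of the mean GFP CPM of its tissue, cldn3c was at 0.914, 1.11 and 0.850 in the 3 gill DsRedx libraries and at 1.02, 1.05 and 1.01 in the intestine DsRedx libraries. In intestine the values were 1.26, 1.101 and 1.26 for cldn3d, 1.37, 0.975 and 1.35 for cldn15la, and 1.03, 1.14 and 0.993 for cldn15lb. Above this level stood gill DsRedx replicate 2 for cldnb, with 4.81 against 1.40 and 0.960 in the other gill DsRedx libraries, and replicate 3 for cldn7b, with 6.40 against 1.49 and 1.21.

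Such a low level was not particular to claudins. Of the non-claudin genes with a tissue mean of at least 2000 counts (448 in gill, 663 in intestine), each library had 13 to 63 genes under 3% of their tissue mean, and 0 of these genes were at zero. Their median level was bounded from above by that 3% cut. It was 0.746% to 1.53% of the tissue mean count in gill libraries and 1.36% to 2.11% in intestine libraries. It was present in every library but not equal between reporters: gill GFP libraries had 0.746% to 1.27% and gill DsRedx 1.49% to 1.53%, and intestine GFP libraries had 1.497% to 2.11% and intestine DsRedx 1.36% to 1.44%. Intestine DsRedx libraries also had more such genes (53 to 63) than intestine GFP libraries (21 to 31). The percentages of the claudins above were of the GFP mean. As a percent of the tissue mean count, gill DsRedx libraries had 1.29, 1.72 and 1.67 for cldn3c, 1.90, 7.19 and 1.81 for cldnb, and 2.06, 1.84 and 12.2 for cldn7b. Intestine DsRedx libraries had 1.15, 1.23 and 1.26 for cldn3c, 1.51, 1.39 and 1.26 for cldnb, and 2.12, 1.27 and 1.81 for cldn7b. The DsRedx levels of the 6 claudins are therefore given as read, and whether DsRedx cells transcribe them at this level cannot be told apart from a low level that all libraries of a tissue share. With 1.5 times that level subtracted, here and in every such fit below, all 6 intestine calls and the cldn3c call in gill held. The subtraction set the DsRedx counts of these genes to 0, except for cldn7b, which kept 2, 0 and 0 counts in intestine DsRedx libraries. It could not narrow these differences, so the calls that held do not test the part of the low level in them. In that fit cldnb (edgeR adjusted p = 0.123) and cldn7b (0.145) were no longer called in gill. Their fitted log2 fold changes became larger, 6.99 for cldnb and 6.19 for cldn7b, since only gill DsRedx replicate 2 for cldnb and replicate 3 for cldn7b kept counts.

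**Figure D5:**
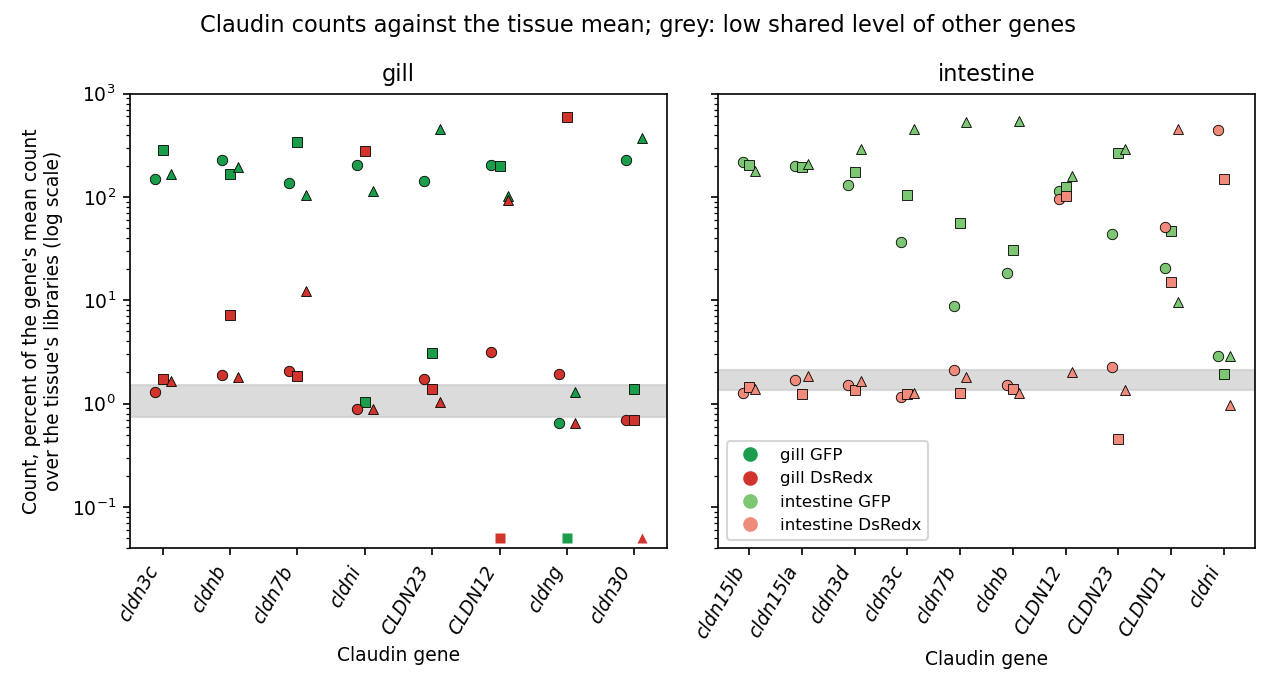
Count of the claudins with the highest mean counts of each tissue, in each library, as a percent of the gene's mean count over the 6 libraries of the tissue. The axis is logarithmic, and zeros are drawn at 0.05 without an outline. The grey band is the range of library medians for low values of other abundant genes (0.746% to 1.53% in gill, 1.36% to 2.11% in intestine). Only values under 3% entered these medians. Most DsRedx points of the called claudins lie in or near it, those of gill mostly above its upper edge.

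The second comparison asked which claudins separate gill from intestine within a reporter colour. In GFP cells, 1 tested claudin was higher in gill, where 0.703% of tested genes were called higher, and 3 were lower in gill, where 1.33% were called lower (2.03% in either direction). Levels of cldn3c averaged 3994 ± 1784 CPM in the gill and 417 ± 428 CPM in the intestine, a log2 fold change of 3.26 (SE 0.684, 9.57-fold, edgeR adjusted p = 0.0122). That call did not hold without gill GFP replicate 2 (adjusted p = 0.0773) or intestine GFP replicate 2 (0.0926), nor with the low level subtracted (0.141) or genes detected per library as a covariate (0.847). Since gill GFP cells had 0 counts, the 3 intestinal claudins were at least 19784-fold (cldn15lb, edgeR adjusted p = 1.08e-07), 9155-fold (cldn15la, 2.08e-06) and 8113-fold (cldn3d, 3.44e-06) lower in gill GFP cells, against a floor of 3 counts over the group. The difference between tissues did not pass the test for cldnb (adjusted p = 0.132), although its 3 gill GFP values lay above all intestine GFP values, nor for cldn7b (0.905), whose values overlapped. For cldnb it did pass in edgeR without a filter on low counts or without intestine GFP replicate 3, and in limma with a filter at either pseudocount.

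In DsRedx cells the same comparison called cldn3c higher in gill (38.2 ± 5.32 against 4.28 ± 0.0905 CPM, 8.89-fold, edgeR adjusted p = 0.0345; 0.225% of tested genes called higher). It called cldn15lb (adjusted p = 3.24e-05), cldn15la (0.000612) and cldn3d (0.000966) lower in gill (0.534% of tested genes called lower, 0.759% in either direction), each against 0 counts there. These are differences between the low levels described above. Subtracting 1.5 times that level set every DsRedx count of these 4 genes to 0. Thus 0 of the 4 calls could hold in that fit, which cannot test them. The cldn3c call was also lost without gill DsRedx replicate 2 (adjusted p = 0.0529) or without intestine DsRedx replicate 1 (0.0793), 2 (0.0753) or 3 (0.0627).

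The third comparison asked whether the reporter difference itself differed between gill and intestine. For the shared set it did not pass the test: the difference of the log2 fold changes, gill minus intestine, was 0.11 (SE 0.933) for cldn3c with an edgeR adjusted p of 1, −0.95 (SE 1.22) for cldnb (0.838) and −0.99 (SE 1.43) for cldn7b (0.873), so differences of the order of these SEs could not be seen. The folds of these 3 genes rest on DsRedx levels that mostly could not be told apart from the low shared level described above. A small difference between such folds therefore does not show that the reporter effects are equal. By edgeR 0 claudins were called (0.15% of tested genes were called, 0.0563% with a positive and 0.0938% with a negative difference, and 2 claudins, cldni and CLDND1, had an unadjusted p under 0.05). For the intestinal set edgeR gives no usable difference because both gill groups were at 0. Limma on log2(TPM + 1) gave differences of −6.55 (SE 1.16) for cldn3d, −6.65 (SE 1.09) for cldn15la and −6.82 (SE 1.11) for cldn15lb, each with an adjusted p of 0.0328, and DESeq2 also called these 3, whereas limma on log2(TPM + 0.1) called 0. With 0 TPM in every gill library, the gill effect in limma is 0 by construction. These limma differences are thus the intestine reporter effects with the sign turned, and no gill effect was measured. Of the claudins called between reporters, 3 were called in both tissues, 3 in intestine alone and 0 in gill alone. Those called in intestine alone had 0 counts in gill, so they could not have been called there. The share of all tested genes called in both tissues is not given here, so these counts stand without a background. The reporter comparisons of the tissues share no libraries, but all 12 libraries share 1 estimate of spread.

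A further group of claudins was read strongly in some libraries of a group and hardly in others, each library being a small cell pool. The gene cldni was at 138, 0.791 and 87.4 TPM in gill GFP, 0.716, 177 and 0.515 in gill DsRedx, 0.219, 0.17 and 0.173 in intestine GFP, and 40.7, 14.1 and 0.0803 in intestine DsRedx. Its reporter groups overlapped in both tissues, and its edgeR adjusted p was 0.972 in gill and 0.122 in intestine, where DESeq2 and edgeR without a filter on low counts called it lower in GFP cells. Between tissues in GFP cells, cldni averaged 89.3 ± 77.6 CPM in gill and 0.224 ± 0.0347 CPM in intestine, without overlap (edgeR adjusted p = 0.098). DESeq2, edgeR without that filter and some fits that left out 1 DsRedx library called it higher in gill GFP cells. The gene cldng was at 193 TPM in gill DsRedx replicate 2 (918 counts) and at 0.796 and 0.191 in the others of that group, at 0.223, 0 and 0.502 in gill GFP and at 0 in all 6 intestine libraries. That library, gill DsRedx replicate 2, thus held the highest cldng, cldni and cldnb levels of its group. Other claudins went differently: cldn7b and CLDN12 were highest in replicate 3 (28.7 and 10.7 TPM, against 4.75 and 0 in replicate 2). The level of cldn3c was 28.0, 29.4 and 25.9 TPM in the gill DsRedx libraries. Gill DsRedx replicate 2 also held the highest level of the adhesion gene cdh1 in the group (36.2 TPM, against 4.07 and 5.09). The whole epithelial list summed to 244.5, 1031.8 and 935.4 TPM in gill DsRedx replicates 1, 2 and 3. Its members did not move together between gill reporters. By edgeR cdh1 was 20.3-fold higher in gill GFP cells (adjusted p = 0.0142). In the same test krt8 (log2 fold change −1.14, adjusted p = 0.186) and krt18a.1 (0.587, adjusted p = 0.827) were not called. The sum therefore does not follow cdh1 alone. The part of epithelial RNA in the claudin values was not tested.

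CLDN23 was at 32.5, 0.8 and 116 TPM in gill GFP against 0.469, 0.297 and 0.202 in gill DsRedx, and at 5.52, 38.7 and 28.7 in intestine GFP against 0.348, 0.0713 and 0.19 in intestine DsRedx. Its GFP values lay above the DsRedx values in both tissues, but it did not pass the edgeR test in either (adjusted p = 0.0627 and 0.0845); DESeq2 called it in both. The gene cldn30 was at 40.2, 0.28 and 74.1 TPM in gill GFP and 0.148, 0.117 and 0 in gill DsRedx (ratio of pooled rates 340, exact 95% Poisson interval 93.9 to 2810, for counting error only; edgeR adjusted p = 0.111). In intestine it was at 12.8, 1.58 and 0 TPM in GFP and at 0, 0 and 0.0994 in DsRedx libraries (adjusted p = 0.179). DESeq2 called cldn30 higher in GFP cells in both tissues.

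CLDN12, a claudin of many tissues, was not called in either reporter comparison. It was at 27.4, 30.1 and 15.5 TPM in gill GFP, 0.5, 0 and 10.7 in gill DsRedx, 40.9, 52.0 and 45.1 in intestine GFP, and 41.3, 44.9 and 0.785 in intestine DsRedx. In gill the GFP values lay above all DsRedx values (4.85-fold, edgeR adjusted p = 0.382), and in intestine DsRedx replicates 1 and 2 lay close to or within the range of the GFP libraries (adjusted p = 0.965). The claudin domain gene CLDND1 had the highest mean of the 42 genes in intestine DsRedx cells (32.3 ± 44.5 TPM), at 10.3, 3.12 and 83.5 TPM, against 3.42, 9.12 and 1.27 in intestine GFP (adjusted p = 0.439). In gill it was at 0.138, 0.933 and 0 TPM in GFP and at 0 in all 3 DsRedx libraries. Between tissues in DsRedx cells, CLDND1 averaged 36.1 ± 49.7 CPM in intestine and did not overlap with gill. It was at least 219-fold lower in gill against a floor of 3 counts over the group (edgeR adjusted p = 0.113). DESeq2 and filtered limma on log2(TPM + 0.1) called it lower in gill DsRedx cells.

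Several claudins were read mostly in gill GFP cells. The gene cldne was at 11.3, 22.8 and 0.94 TPM there (95, 170 and 7 counts), at 0, 0.225 and 0.102 in gill DsRedx, at 0 in all intestine GFP libraries and at 0.42, 0 and 0 in intestine DsRedx. The genes cldna and cldnf each rested on gill GFP replicate 1, with 31.2 TPM (244 counts) and 30.1 TPM (225 counts), had 1 count in each of the other gill GFP libraries, and were at 0 in the 9 libraries of the other groups. The same library held 17.2 TPM of cldn8.2 (122 counts) and 12.95 TPM of CLDN5 (ENSDARG00000014059, 86 counts), whose mammalian orthologue seals endothelium and which also had 3.08 TPM (28 counts) in intestine GFP replicate 1. The endothelial list summed to at most 0.0463 TPM in gill GFP libraries and to 0.169 TPM in intestine GFP replicate 1.

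The remaining members were sparse. The gene cldn15b, a relative of the intestinal pair, was at 19.2 TPM in intestine DsRedx replicate 1 (194 counts), 7.42 in intestine GFP replicate 3 and 4.43 in gill GFP replicate 3. The gene cldnk, known in zebrafish from myelinating glia, was at 8.02 TPM in intestine GFP replicate 2 (66 counts), and cldn23l reached 7.09 TPM in gill DsRedx replicate 2 (40 counts). CLDN2, whose mammalian orthologue forms cation pores in leaky epithelia, had 22 counts in intestine GFP replicate 1 (2.13 TPM). The gene cldn15a, which zebrafish embryos need to form a single gut lumen, had 10 counts, all in intestine GFP replicate 1. Those with 0 counts in all 12 libraries were cldnd, cldn29, cldn33b, CLDN11 (ENSDARG00000020031), cldn7a, CLDN19, cldn10d, cldn10e, CLDN10 (ENSDARG00000058937), cldn26, cldn18 and cldn10l2.

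By group, then, and counting a claudin as detected when all 3 libraries reached 1 TPM, gill GFP cells held 4 claudins (cldnb, cldn3c, cldn7b and CLDN12) and intestine GFP cells 9 (the same 4, cldn15la, cldn15lb, cldn3d, CLDN23 and CLDND1). Gill DsRedx cells held 3 (cldnb, cldn3c and cldn7b) and intestine DsRedx cells 7 (these 3, cldn15la, cldn15lb, cldn3d and CLDND1). With 1.5 times the shared low level subtracted these counts were 4, 8, 0 and 1 in the same order, and at 10 TPM in all 3 libraries they were 4, 7, 2 and 3. Most values on the DsRedx lists were thus no higher than the amount subtracted. In gill GFP cells the order by mean TPM was cldnb (4067 ± 393), cldn3c (3942 ± 1616), cldn7b (584 ± 411), cldni (75.5 ± 69.6), CLDN23 (49.9 ± 59.7), cldn30 (38.2 ± 37.0) and CLDN12 (24.3 ± 7.77). The first pair did not differ beyond their spread, nor did the last 4 among themselves. In intestine GFP cells it was cldn15la (2674 ± 424), cldn15lb (2456 ± 638), cldn3d (1181 ± 328), cldnb (628 ± 907), cldn3c (415 ± 405), cldn7b (372 ± 504), CLDN12 (46.0 ± 5.64) and CLDN23 (24.3 ± 17). There the first pair overlapped, as did the 3 shared claudins among themselves.

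Neighbouring claudin genes were in part read in different groups. In the RefSeq gene order of the zebrafish assembly GRCz12tu, which differs from the build of the counts and is used here for order only, cldn3c, cldn3d, cldnb, cldn29, cldnd, cldn28 and cldn30 follow each other with 0 protein-coding genes between them. Within this block of 7, cldn3c and cldnb were read in GFP cells of both tissues, cldn3d in the intestine alone, cldn30 chiefly in 2 gill GFP libraries, and cldn29 and cldnd nowhere, while cldn28 was not analysed here. A second block of 4, cldnj, cldne, cldnf and cldna, held 3 of the claudins read chiefly in gill GFP cells. Of these, cldnf and cldna rested on gill GFP replicate 1 alone (225 and 244 counts). None of cldne, cldnf and cldna had enough counts to be tested.

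The other genes of the tight junction were taken from a list of 63 names, of which 3 were not found; the others matched 61 genes, since some names stand for more than 1 identifier, and 32 had enough counts to be tested. In gill 7 of 32 were higher in GFP cells and 0 lower (2.29% of all tested genes were called higher), and in intestine 9 were higher and 0 lower (2.09%). The median log2 fold change of the 32 was 4.49 in gill and 5.93 in intestine, against 0 and 0.08 over all tested genes. As with the claudins, genes passed the count filter through the groups where they were high, so these values do not describe all 61. Of those called, 6 were called in both tissues: the scaffold genes tjp1b and tjp3, the angulin genes lsr, ildr1a and ildr1b of contacts between 3 cells, and the strand protein gene MARVELD3. The share of all tested genes called in both tissues is not given here. The highest of the angulins by mean gill level was ildr1a, at 157, 86.1 and 395 TPM in gill GFP, 2.45, 1.77 and 2.37 in gill DsRedx, 75.9, 89.6 and 119 in intestine GFP and 0.867, 1.21 and 0.859 in intestine DsRedx. Its groups did not overlap, and it was 74.2-fold higher in gill GFP cells (edgeR adjusted p = 0.00267) and 76.4-fold higher in intestine GFP cells (0.00227).

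The adhesion receptor gene CXADR was called in gill and not in intestine (102-fold with an edgeR adjusted p of 0.0459, and 79.2-fold with 0.0585), and the difference between these effects was not called (adjusted p = 1). The occludin gene oclna, whose product runs in the strands beside claudins, was called in intestine and not in gill. For oclna, intestine GFP libraries were at 104, 281 and 224 TPM and intestine DsRedx libraries at 2.17, 1.71 and 1.84 (82.8-fold, adjusted p = 0.00712), while gill GFP libraries were at 397, 303 and 127.9 and gill DsRedx libraries at 1.76, 52.4 and 1.55 (9.58-fold, adjusted p = 0.102), and the difference of the effects was not called either (adjusted p = 0.364). The 52.4 TPM again belonged to gill DsRedx replicate 2. Between tissues, 0 of the 32 were called by edgeR in GFP cells (5 with an unadjusted p under 0.05) or in DsRedx cells (8), and 0 differed between tissues in their reporter effect (5). The junction adhesion molecule gene f11r.1 was the most abundant member in gill GFP cells, with mean levels of 1056 TPM there, 105 in gill DsRedx, 476 in intestine GFP and 98.4 in intestine DsRedx, and was not called in either tissue (adjusted p = 0.092 and 0.2). Counts of these called genes moved with the method, from 1 to 15 in gill and from 2 to 17 in intestine. How many of all tested genes each method called is not given here.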

How the data were processed

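RNA of 30 to 50 sorted cells per sample was amplified by SMART-seq2 and read as 150-base pairs, per the labels' protocols. The authors deposited whole-number counts per Ensembl gene and, in a second table, TPM of the same genes. STAR, featureCounts and the build danRer11 are named in the submitters' processing notes; versions, settings, annotation release and how reads common to close paralogs (cldn15la and cldn15lb, for example) were counted are not stated there, which leaves their levels uncertain. Symbols came from a gene name table, which named 29201 of 32520 identifiers.

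Counts were tested with edgeR 4.0.16 in R 4.3.3: filterByExpr (10666 genes kept), TMM factors, 1 mean per group over all 12 libraries (8 residual degrees of freedom) and the quasi-likelihood F test. There were 5 contrasts, and p-values were Benjamini-Hochberg adjusted over all tested genes of a contrast, called under 0.05. SE is the log2 fold change divided by the square root of F. Other tools were limma 3.58.1 on log2(TPM + 1 or 0.1) and DESeq2 1.42.0. The test was also run on simulated counts with large changes planted in gill GFP libraries, and the outcome is not reported here. To subtract the low shared level, 1.5 times a library's median low share of the tissue mean was removed from each count. Detection at 10 TPM or with that level subtracted was added after the data were seen. Intervals and floors of 3 counts cover counting error only.

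Named with the value in every library were claudins called in a contrast or with a group mean of at least 10 TPM; sparser ones named were chosen after their values were seen. The members, the lists and the tests were chosen with earlier results of these data known. Sequences were not used here. Not every called gene of the tight junction list is reported here by name.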

Additional observations from a re-analysis of the deposited data

How the results depend on the processing

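No direction reversed. Of 406 recomputed values for 17 called claudin results, 371 kept direction and call, and 35 missed the threshold, among them the DsRedx values that became 0 with the low shared level subtracted. Claudins called between reporters in gill numbered 3, and 1 with the low shared level subtracted (2 to 3 with 1 library left out) and 4 by DESeq2, which adds cldn30 and CLDN23. In intestine they numbered 6, and 2 with genes detected per library as a covariate (5 to 6 with 1 library left out), 8 by DESeq2 (with cldni lower, and cldn30 and CLDN23 higher), and 7 without a filter on low counts, with only the groups of the contrast or by filtered limma with a pseudocount of 0.1. Between tissues 4 were called in GFP cells (3 to 5 with 1 left out). In DsRedx cells 4 were called, 2 by limma on log2(TPM + 1) with a filter at 1 TPM, and 0 with the covariate, with only the groups of the contrast, or with the low level subtracted (3 to 5 with 1 left out). For the difference of reporter effects, 0 were called by edgeR and 3 by DESeq2 and by limma on log2(TPM + 1) with or without a filter (0 with a pseudocount of 0.1). These 3 had 0 counts in gill, so their calls rest on the intestine effect alone. Detected claudins went from 3 to 0 in gill DsRedx cells with the low level subtracted, and from 7 to 3 at 10 TPM and 1 with the low level subtracted in intestine DsRedx cells. Other tight junction genes called in gill went from 7 to 15 (DESeq2), 12 (limma, pseudocount 1 or 0.1, filtered), 11 (limma, unfiltered), 4 (covariate), 3 (low level subtracted) and 1 (only the groups of the contrast), and from 2 to 6 with 1 library left out. In intestine they went from 9 to 17 (DESeq2), 14 (limma filtered, pseudocount 1 or 0.1; only the groups of the contrast), 2 (covariate) and 3 to 10 with 1 left out. The share of all tested genes called under each setting is not given here. Changes in these counts, and in those of claudins, therefore cannot be told apart from a setting that calls more or fewer genes in general. RLE factors moved the median log2 fold change of all genes by −0.251 in gill and −0.232 in intestine, 0.245 between GFP groups and 0.288 between DsRedx groups, and upper-quartile factors by 0.193 in intestine, 0.122 between DsRedx groups and −0.169 for the difference; claudin counts stayed at 3, 6, 4 and 4 under both. With the replicate block, claudin counts were 3, 6, 4, 5 and 0 in the 5 contrasts, and other tight junction genes 3 in gill and 8 in intestine. Same-numbered libraries deviated with correlations of −0.0344 to 0.0418 over 18 pairs, against −0.0368 to 0.0464 over 36 pairs of other numbers. With so wide a spread between small pools, this cannot settle whether equal numbers mark a shared origin. The labels do not say either. DESeq2 gave no p for cldnb, CLDN12 and cldn15b, so its counts leave them out. Each group had 3 libraries of 30 to 50 cells, and the common biological coefficient of variation was 1.42. The calls of cldni, cldng, cldn30, CLDN23 and CLDND1, which varied widely within groups, depended on the tool or filter.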
